A study of Mus musculus with 6 samples.

Results

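The calponins (Cnn1, Cnn2 and Cnn3) and the transgelins (Tagln, Tagln2 and Tagln3) were taken from a table of 23997 gene symbols by their symbols, and all 6 were present. The table was made by RNA-Seq of total RNA from the ductus arteriosus (DA) of C57BL/6 mouse embryos at E17.5, with no treatment. There were 3 libraries from wild type embryos, named WT 0, WT 1 and WT 2, and 3 from Prdm6f/f; SM22-Cre embryos, named KO 0, KO 1 and KO 2. The KO embryos carried floxed alleles of Prdm6, which encodes a PR domain protein of smooth muscle, and a Cre transgene that is active in smooth muscle cells. The WT embryos were littermates. The DA is the fetal vessel between the pulmonary artery and the aorta, and the study asked what loss of Prdm6 changes in it before birth. SM22 is the protein made from Tagln, so Cre in the KO embryos was driven by the promoter of one of the 6 genes. Which SM22-Cre line was used is not given in the sources used here. For Tagln itself, the presence of the Cre transgene and the loss of Prdm6 cannot be told apart in these groups.

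Calponins and transgelins are actin-binding proteins. Each starts with a calponin homology domain and ends with calponin-like repeats, through which calponins bind actin filaments and slow actomyosin. Cnn1 (basic calponin) and Tagln (SM22 alpha) are classical markers of differentiated smooth muscle, and their promoters are known targets of serum response factor with its coactivator myocardin. Cnn2 and Cnn3 are made in smooth muscle and in many non-muscle cells, Tagln2 is made widely, blood cells included, and Tagln3 is mainly a transcript of neurons. The comparison between the groups was therefore read along these lines, the smooth muscle members first and the widely made paralogs after them.

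The calponin-like repeat is shown here because all 6 genes hold it, in different numbers. A search of the coding sequences in frame, on the coding strand, for NTNCANATGGG found 3 repeats in each calponin and 1 in each transgelin. The last repeat of each gene is given here, 5′ to 3′, as 51 bases from the GENCODE vM21 transcripts on GRCm38, with the 20 bases shared by all 6 genes in capitals.
Cnn1: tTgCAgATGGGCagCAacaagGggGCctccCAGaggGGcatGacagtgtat
Cnn2: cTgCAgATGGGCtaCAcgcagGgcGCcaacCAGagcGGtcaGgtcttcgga
Cnn3: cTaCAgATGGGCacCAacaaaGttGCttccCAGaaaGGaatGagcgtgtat
Tagln: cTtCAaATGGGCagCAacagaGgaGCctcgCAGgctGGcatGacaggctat
Tagln2: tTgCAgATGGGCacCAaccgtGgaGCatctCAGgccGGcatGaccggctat
Tagln3: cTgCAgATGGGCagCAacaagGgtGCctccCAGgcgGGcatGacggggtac
Cnn1, Cnn2 and Cnn3 encode 297, 305 and 330 residues. Tagln encodes 201 residues, and Tagln2 and Tagln3 encode 199 each.

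**Figure D1:**
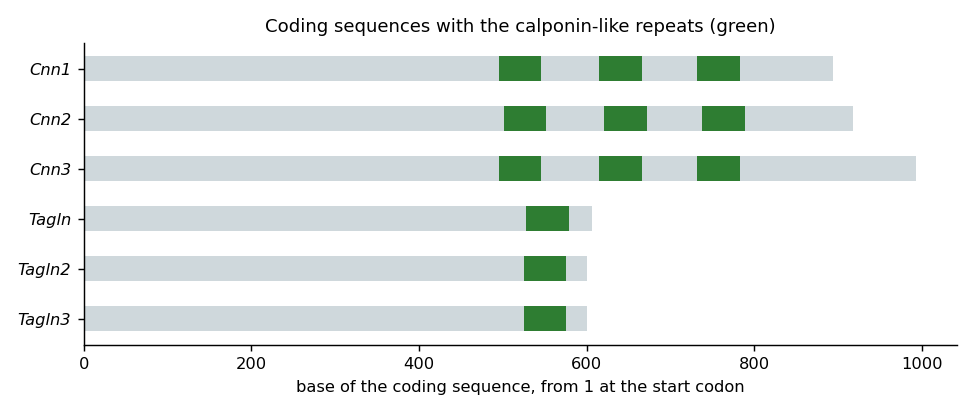
Coding sequences of the 6 genes drawn to scale, with the base counted from 1 at the start codon on the horizontal axis and the calponin-like repeats in green. The calponins hold 3 repeats and the transgelins 1, near the end of the coding sequence.

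This likeness does not reach the length of a read. Over the 15 pairs of members the aligned coding sequences were 65.7% to 71.9% identical, and the longest run of identical bases in a pair was 10 to 23. The shortest read kept by the authors was 45 bases, and no stretch of 45 bases was shared between members, so a read of that length from 1 member matches no other member exactly. Cnn1 (chr9:22099216-22109630, plus strand), Cnn2 (chr10:79988584-79996062, plus strand) and Tagln3 (chr16:45711230-45724608, minus strand) shared no such stretch with any other gene. In Cnn3 (chr3:121426497-121458207, plus strand) 12.0% of the 45-base stretches also occurred in the pseudogenes Gm17936 and Gm4815, and 17.7% of its exonic bases overlap the gene model Gm42928. Counting this overlap, 25.9% of its 45-base stretches occurred in another gene. In Tagln2 (chr1:172500047-172507380, plus strand) 0.802% of the stretches occurred elsewhere. Tagln (chr9:45929619-45936058, minus strand) shares exonic bases with the convertase gene Pcsk7 and with Gm48529. Added up gene by gene, with a base shared with both counted for each, these were 67.9% of its exonic bases. Of its 45-base stretches, 59.4% occurred in another gene. Whether the counting used strand is not given in the sources used here. Reads from the parts that Tagln shares with Pcsk7 may not have been told apart. Pcsk7 was listed at 5.86, 7.67 and 15.7 FPKM in WT and at 12.7, 11.4 and 12.3 FPKM in KO, far under Tagln in every library.

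The values are FPKM, fragments scaled to transcript length and to the size of the library, so levels may be compared between genes. How many fragments each library holds cannot be read from FPKM, and the steps between low values put the relative depths between 0.933 and 1.20 of WT 1. Prdm6 was listed at 19.8 to 48.4 FPKM in WT and 15.4 to 48.6 FPKM in KO, and the groups overlapped (log2 fold change -0.32, SE 0.48, limma adjusted p = 0.833). Which exons were floxed is not given in the sources used here, so this level checks the KO label neither way, and KO below means a library labelled KO. KO 0 held the X inactivation transcript Xist (81.0 FPKM) and the Y-linked Ddx3y (26.4 FPKM) together, which 1 embryo of either sex would not give, so the member values are also given without it. WT 1 and KO 2 had the highest summed FPKM of 20 heart muscle markers, 2090 and 2421, against 174 to 781 in the other 4 libraries. Smooth muscle genes were abundant in all 6 libraries, with Acta2 at 396 to 2262 FPKM.

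In WT, Tagln was the most abundant of the 6 and 45th of 12955 tested genes by its mean, and its 3 values lay above those of every other member. Cnn3, Cnn1 and Cnn2 followed, and Tagln2 came after them. Neighbours in that order from Cnn3 to Tagln2 had overlapping ranges, and Cnn3 exceeded Cnn1 in 2 of 3 libraries, as Cnn1 did Cnn2. Tagln3 was far below the rest. In KO the order was Tagln, Cnn3, Tagln2, Cnn2, Cnn1 and Tagln3, with overlapping ranges only between Tagln2 and Cnn2. Cnn1 stood above Tagln2 in every WT library and below it in every KO library. By its mean, Cnn1 was 295th of the tested genes in WT and 1337th in KO, and Tagln was 111th in KO.

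**Figure D2:**
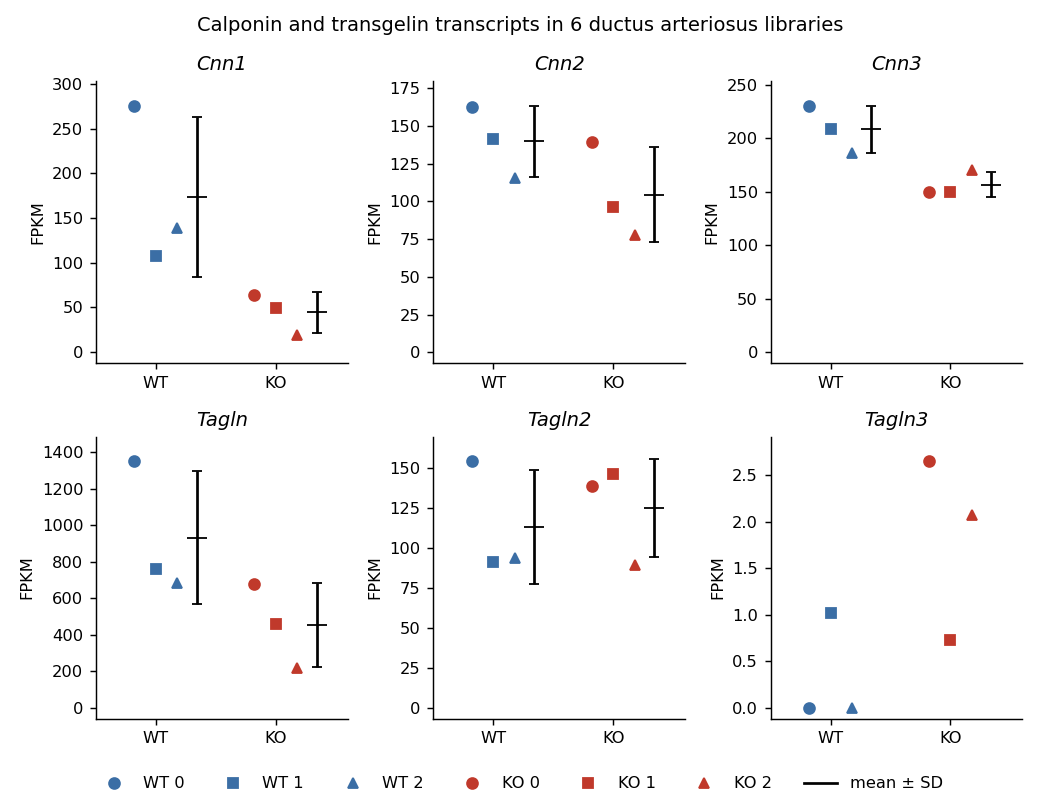
FPKM of each member (vertical axes) in the 3 WT and 3 KO libraries, with 1 symbol per library number; black bars give the mean ± SD of a group and are left out for Tagln3, which is listed at 0 in 2 libraries. The WT and KO values of Cnn1, Cnn3 and Tagln do not overlap, and WT 0 is the highest library for every member but Tagln3.

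Cnn1, the smooth muscle calponin, was lower in every KO library than in any WT library. It was measured at 276, 107 and 139 FPKM in WT 0, WT 1 and WT 2, and at 64.1, 49.9 and 19.2 FPKM in KO 0, KO 1 and KO 2. WT 0 was well above the other WT libraries and KO 2 well below the other KO libraries. The mean was 174 ± 89.4 FPKM (SD, n = 3) in WT and 44.4 ± 22.9 FPKM (SD, n = 3) in KO, 3.92-fold lower. On the log2 scale the difference was -2.02 (SE 0.50, 95% interval -3.18 to -0.85), with a limma p = 0.00416 and an exact permutation p = 0.1, the smallest value that a two-sided test of 3 against 3 libraries allows. It did not pass adjustment over all tested genes (limma adjusted p = 0.463). Of the 12955 tested genes, 194 had a lower log2 fold change. Leaving out WT 0 gave -1.63, leaving out KO 2 gave -1.50 and leaving out KO 0 gave -2.37.

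Tagln, the smooth muscle transgelin, was likewise lower in each KO library, but KO 0 lay just under the lowest WT library. It was measured at 1350, 762 and 684 FPKM in WT 0, WT 1 and WT 2, and at 676, 460 and 216 FPKM in KO 0, KO 1 and KO 2. The mean was 932 ± 364 FPKM (SD, n = 3) in WT and 451 ± 230 FPKM (SD, n = 3) in KO, 2.07-fold lower. WT 0 and KO 2 were again the highest and the lowest library. The log2 fold change was -1.13 (SE 0.44, 95% interval -2.16 to -0.10, limma p = 0.0360, adjusted p = 0.591, exact permutation p = 0.1). The unadjusted limma p was over 0.05 with WT 0, WT 1, KO 1 or KO 2 left out, with WT 1 and KO 2 both left out, and in the fits with no moderation or no mean-variance trend. Without WT 0 the value was -0.83 (adjusted p = 0.628), without KO 2 it was -0.67 (adjusted p = 0.822), and without KO 0 it was -1.50 (adjusted p = 0.675). In bulk RNA, fewer smooth muscle cells and less of these transcripts in each cell cannot be told apart.

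Cnn3, the acidic calponin, differed less and varied less between libraries. It was measured at 230, 208 and 186 FPKM in WT and at 150, 149 and 171 FPKM in KO, and the highest KO library was under the lowest WT library. The means were 208 ± 22.0 FPKM and 157 ± 12.1 FPKM (SD, n = 3 each). This was a log2 fold change of -0.41 (SE 0.16, 95% interval -0.78 to -0.04, limma p = 0.0337, adjusted p = 0.588, exact permutation p = 0.1). Unlike Tagln and Cnn1, it had its highest KO value in KO 2. After quantile normalization, which gives every library the same set of values, the log2 fold change was -0.23, and without KO 0 it was -0.38. The unadjusted p was over 0.05 in both, as it was with WT 0, WT 1 or KO 1 left out, with WT 1 and KO 2 both left out, with upper quartile scaling, with the replicate number as a block and without the mean-variance trend.

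Cnn2, the calponin of smooth muscle and many other cells, was measured at 163, 141 and 115 FPKM in WT and at 139, 96.2 and 77.7 FPKM in KO. The groups overlapped, since KO 0 was above WT 2. The means were 140 ± 23.7 FPKM and 104 ± 31.7 FPKM (SD, n = 3 each), and the log2 fold change was -0.45 (SE 0.25, 95% interval -1.02 to 0.13, limma p = 0.108, adjusted p = 0.649, exact permutation p = 0.2). It was -0.68 (adjusted p = 0.675) without KO 0, -0.26 without KO 2 and -0.24 without WT 1 and KO 2. The unadjusted limma p was under 0.05, with an interval that left out 0, without KO 0 and with the replicate number as a block.

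Tagln2, the widely made transgelin, did not separate the groups. It was measured at 154, 91.5 and 93.6 FPKM in WT and at 139, 146 and 89.6 FPKM in KO, and both the highest value and the second lowest were WT values. The means were 113 ± 35.7 FPKM and 125 ± 30.7 FPKM (SD, n = 3 each). The log2 fold change was 0.15 with a 95% interval of -0.49 to 0.79 (SE 0.28, limma adjusted p = 0.867), which holds differences of either sign. It was 0.40 without WT 0, 0.38 without KO 2 and 0.06 without KO 0.

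Tagln3, the neuronal transgelin, was near the limit of what these libraries list. It was listed at 0 in WT 0 and WT 2 and at 1.02 FPKM in WT 1, against 2.65, 0.723 and 2.07 FPKM in KO 0, KO 1 and KO 2. KO 1 was below WT 1, so the groups overlapped. A listed 0 need not mean that no transcript was there, since 34 to 61 of the 3506 genes with a mean of at least 20 FPKM were also listed at 0 in a library. That number was highest in WT 2 (61) and WT 0 (45), where Tagln3 was listed at 0. WT 2 and WT 0 also had the fewest genes above 0, at 12111 and 13684. The Tagln3 mean of 1.08 FPKM over all libraries only just passed the minimum of 1 FPKM for testing. The log2 fold change of FPKM + 0.1 was 2.93 (SE 1.58, 95% interval -0.76 to 6.61, limma adjusted p = 0.649). With 1 FPKM added in place of 0.1 the value was 1.09, and with 0.01 it was 5.09, so its size depends on the constant. Without KO 0 it was 2.58 (adjusted p = 0.780). The summed FPKM of 21 neuronal markers was 44.4 to 77.2 in WT and 75.5 to 128 in KO, and the part of neuronal RNA in the Tagln3 values was not tested.

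Over the family, 3 of 6 members had WT and KO values that did not overlap and were lower in KO (Cnn1, Cnn3 and Tagln), against 7.84% of all tested genes. None of the 6 was higher in KO without overlap, against 8.21% of all tested genes. The same 3 members had an unadjusted limma p under 0.05, against 4.97% of tested genes with such a p and lower in KO. With adjustment 0 of 6 members passed, and 1 gene in the whole table did (0.00772% of tested genes). That gene was Rn45s, a ribosomal RNA precursor, named after its value was seen. Summed over the 3 calponins, 441 to 669 FPKM were measured in WT and 268 to 354 FPKM in KO, with no overlap. The transgelin sum, mostly Tagln, was 778 to 1504 FPKM in WT and 308 to 818 FPKM in KO, and overlapped.

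**Figure D3:**
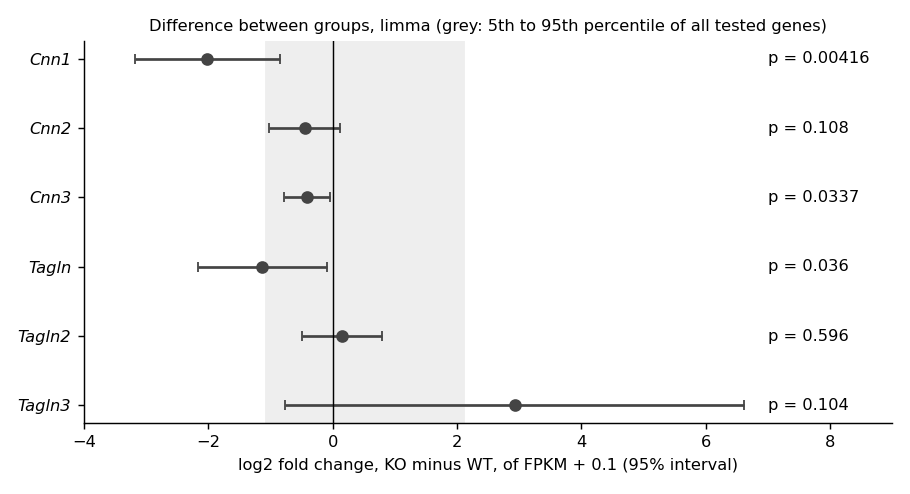
Log2 fold change of FPKM + 0.1, KO minus WT (horizontal axis), of each member with its 95% interval from limma and its unadjusted p; the grey band spans the 5th to 95th percentile of all tested genes. The estimate for Cnn1 (-2.02) lies outside the band, as do those for Tagln (-1.13), by a small margin, and Tagln3 (2.93), whose interval (-0.76 to 6.61) is the widest.

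Ratios of paralogs within a library do not depend on how that library was scaled. Those of Tagln to Tagln2, Cnn1 to Cnn2 and Cnn1 to Cnn3 were lower in KO without overlap. Ratios of Tagln to Cnn2 and Cnn3 were not computed. The ratio of Tagln to Tagln2 was 8.75, 8.32 and 7.31 in WT and 4.87, 3.15 and 2.41 in KO. The WT libraries, which differed widely in Tagln itself, were close together in this ratio, at 8.13 ± 0.739 (SD, n = 3), against 3.48 ± 1.26 in KO. Over all tested genes, 4.86% had a ratio to Tagln2 that was lower in KO without overlap. Of the FPKM summed over the 3 transgelins, Tagln held 89.7%, 89.2% and 88.0% in WT and 82.7%, 75.8% and 70.2% in KO. The rest was almost wholly Tagln2, at 10.3% to 12.0% in WT and 17.0% to 29.1% in KO.

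Within the calponins, the ratio of Cnn1 to Cnn2 was 1.69, 0.758 and 1.21 in WT and 0.459, 0.518 and 0.248 in KO, without overlap. Of all tested genes, 1.03% had a ratio to Cnn2 that was lower in KO without overlap. The ratio of Cnn1 to Cnn3 was 1.20, 0.514 and 0.748 in WT and 0.427, 0.334 and 0.113 in KO, also without overlap, and 1.69% of tested genes had such a ratio to Cnn3. The ratio of Cnn2 to Cnn3, the paralogs not restricted to smooth muscle, was 0.668 ± 0.0444 in WT and 0.676 ± 0.239 in KO (SD, n = 3 each). The WT values of that ratio, 0.619 to 0.706, fell within the KO values of 0.455 to 0.930. Cnn1 made up 41.2%, 23.4% and 31.6% of calponin FPKM in WT and 18.1%, 16.9% and 7.19% in KO. Leaving out KO 0, WT 0 or KO 2 gave log2 ratio differences of the same sign for Cnn1 and Tagln in all 3 ratios.

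**Figure D4:**
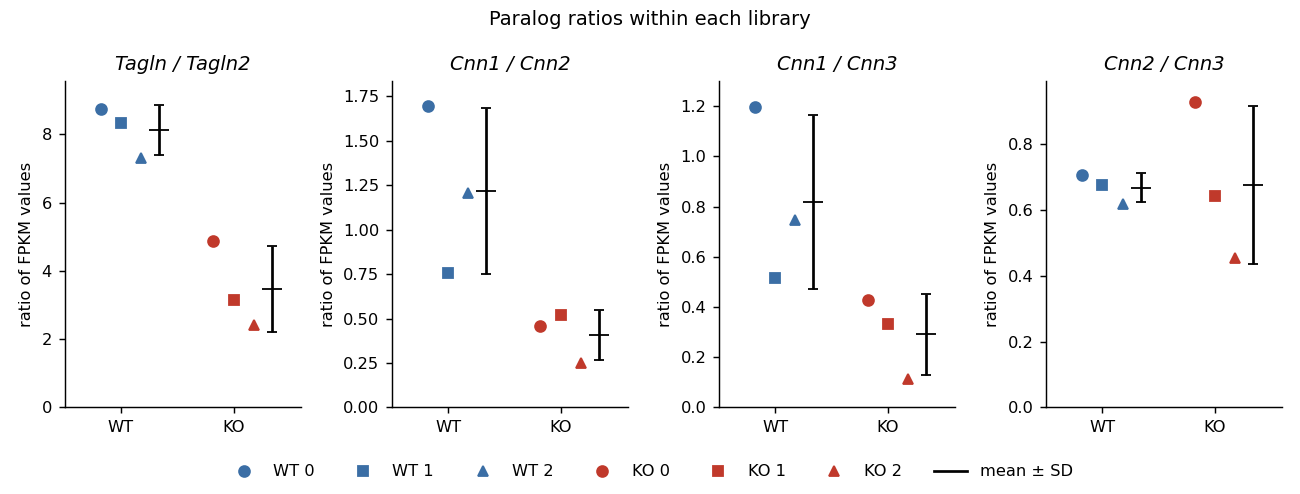
Ratio of the FPKM values of 2 paralogs in the same library (vertical axes), with 1 symbol per library number and the mean ± SD of each group in black. The KO ratios of Tagln to Tagln2, Cnn1 to Cnn2 and Cnn1 to Cnn3 lie below every WT ratio, and those of Cnn2 to Cnn3 lie on both sides.

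Set against other contractile genes, Cnn1 was near the low end of the list and Tagln was below its median. Of 36 contractile genes listed for smooth muscle, members left out, 35 were tested. Of these 34 had a negative log2 fold change, as had 5748 of all 12955 tested genes. The median was -0.60 (-0.82 without KO 0), against 0.07 over all tested genes. Without overlap 10 of 35 were lower in KO and 0 higher, against 7.84% and 8.21% of all tested genes. Without adjustment 10 were lower and 1 higher at a limma p under 0.05, against 644 and 429 of the 12955 tested genes. After adjustment 0 of 35 passed. Cnn1 had a lower log2 fold change than all but 2 of them (Tpm2 and Lmod1, named after their values were seen), and 10 of 35 were lower than Tagln. The 6 most abundant genes of the list were Myl6 and Myl9 (myosin light chains), Acta2 (smooth muscle actin), Tpm1 (a tropomyosin), Flna (filamin A) and Csrp2 (a LIM protein). Their log2 fold changes ran from -0.99 for Csrp2 to -0.29 for Flna, and Tpm1 (-0.78) was the only one of the 6 whose groups did not overlap.

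Acta2, the smooth muscle actin, and Myh11, the smooth muscle myosin heavy chain, were used as yardsticks after their values were seen, as were Actg2 (another smooth muscle actin) and Actb (a cytoplasmic actin). The ratio of Cnn1 to Acta2 was 0.122, 0.0955 and 0.163 in WT and 0.0552, 0.0617 and 0.0486 in KO, without overlap and 2.30-fold lower in the mean. The ratio of Tagln to Acta2 was 0.597, 0.680 and 0.800 in WT and 0.583, 0.568 and 0.546 in KO, also without overlap, by a small margin between WT 0 and KO 0. Of all tested genes, 0.293% had a ratio to Acta2 that was lower in KO without overlap. Against Myh11, Cnn1 overlapped between groups, at 0.368 to 0.453 in WT and 0.293 to 0.434 in KO. Tagln was higher against Myh11 in KO (2.94 to 4.58) than in WT (1.80 to 2.68), as 67.2% of tested genes were. The ratio of Tagln to Cnn1 was 4.90 to 7.11 in WT and 9.22 to 11.2 in KO, and 70.3% of tested genes had a ratio to Cnn1 that was higher in KO without overlap.

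The other yardsticks did not all separate the groups. The ratio to Actg2 overlapped for Cnn1, at 0.307 to 0.483 in WT and 0.201 to 0.361 in KO, and for Tagln, at 1.93 to 2.37 in WT and 2.26 to 3.81 in KO. The ratio of Tagln to Actb also overlapped, at 0.349 to 0.513 in WT and 0.149 to 0.361 in KO. Cnn1 was lower against Actb in KO (0.0133 to 0.0342) than in WT (0.0560 to 0.105), as 1.83% of tested genes were. Tagln2 was higher in KO against Acta2 (0.120 to 0.226, WT 0.0682 to 0.109), as 18.7% of tested genes were. It was also higher against Actb (0.0618 to 0.0819, WT 0.0477 to 0.0586), as 18.6% were. Ratios of Cnn2 and Cnn3 to Acta2 overlapped.

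The paralogs that are not restricted to smooth muscle were set beside 38 genes of the general actin cytoskeleton, which many cell types use. Of these 30 had a negative log2 fold change, and the median was -0.18. Without overlap 6 were lower in KO and 0 higher, against 7.84% and 8.21% of all tested genes. The median was -0.06 after quantile normalization and -0.23 without KO 0. At an unadjusted limma p under 0.05, 6 were lower and 0 higher, against 644 and 429 of 12955 tested genes. After adjustment 0 of 38 passed. Cnn2 and Cnn3 each had 9 of the 38 below them, and Tagln2 had 33 below it. The 6 most abundant genes were Actb and Actg1 (cytoplasmic actins), Tmsb4x (an actin monomer binder), Cfl1 (cofilin), Tpm4 (a tropomyosin) and Pls3 (plastin). Actb (-0.34) was the only one of the 6 whose groups did not overlap, and Tmsb4x (0.40) was the only one with a positive log2 fold change. Tagln and Cnn1 each had 1 gene of this list below them, Tmsb10 (-2.07), named after its value was seen.

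**Figure D5:**
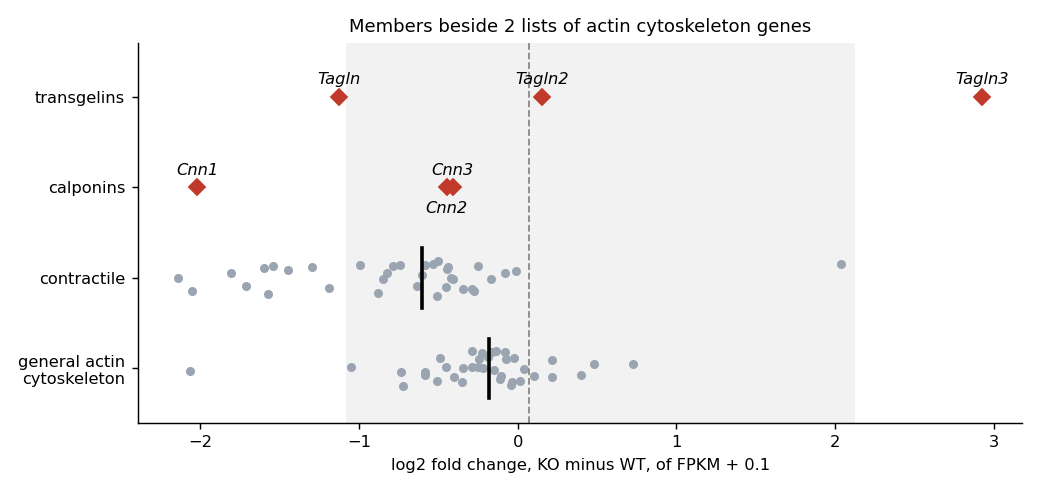
Log2 fold change of FPKM + 0.1, KO minus WT (horizontal axis), of the members (red), of 35 contractile genes and of 38 general actin cytoskeleton genes (grey, with the median of each list as a black bar); the shaded band spans the 5th to 95th percentile of all tested genes and the dashed line is their median. Cnn1 (-2.02) and Tagln (-1.13) lie to the left of both list medians (-0.60 and -0.18), Cnn2 and Cnn3 lie between them, and Tagln2 lies near the dashed line.

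Transcripts listed for the serum response factor and myocardin group lay on both sides of 0, with Srf among the lower ones. Of 20 genes of the serum response factor and myocardin group, 10 had a negative and 10 a positive log2 fold change, with a median of 0.00. In this group 1 gene was lower and 4 were higher in KO without overlap, against 7.84% and 8.21% of all tested genes. After adjustment 0 of 20 passed. At an unadjusted limma p under 0.05, 2 were lower and 2 higher, against 644 and 429 of the 12955 tested genes. Srf itself, singled out after its value was seen, was measured at 21.9, 18.6 and 23.9 FPKM in WT and at 9.57, 13.5 and 10.3 FPKM in KO (log2 fold change -0.95, SE 0.24, limma p = 0.00471, adjusted p = 0.463, exact permutation p = 0.1). Myocd (myocardin), singled out in the same way, was measured at 37.5, 30.05 and 16.8 FPKM in WT and 23.1, 15.0 and 12.4 FPKM in KO, and the groups overlapped (log2 fold change -0.71, SE 0.36, limma adjusted p = 0.633). The 6 most abundant of the group were Csrp2, Hey2, Gata6, Tead1, Prrx1 and Klf4. Of these Csrp2, which is also on the contractile list, alone had an unadjusted p under 0.05 (log2 fold change -0.99, limma adjusted p = 0.545).

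The promoter windows of RefSeq on GRCm38.p6, 250 bases before to 50 after the start, were matched for 5 of the 6 members (Cnn1, Cnn2, Cnn3, Tagln2 and Tagln3). They were searched on both strands for the CArG box, the motif that serum response factor binds, which was present in 1.63% of 32851 windows. Only exact matches of CC, 6 bases of A or T and GG were counted, and bases outside the windows were not searched. Tagln had no window, so its promoter was not searched. Of the 5 windows only that of Cnn2 held a match, which began 56 bases before the start. The part of that window ahead of the gene (chr10:79988350-79988583, plus strand) is given with the CArG box in capitals.
Cnn2 promoter: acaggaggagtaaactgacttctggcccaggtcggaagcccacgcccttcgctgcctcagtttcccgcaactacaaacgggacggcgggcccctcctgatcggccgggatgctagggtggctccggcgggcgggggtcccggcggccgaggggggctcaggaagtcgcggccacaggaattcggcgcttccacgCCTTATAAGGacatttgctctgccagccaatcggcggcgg
Cnn1, the member with the lowest log2 fold change, held no match in this window, whose part ahead of the gene (chr9:22099003-22099215, plus strand) is given for comparison, with no base in capitals.
Cnn1 promoter: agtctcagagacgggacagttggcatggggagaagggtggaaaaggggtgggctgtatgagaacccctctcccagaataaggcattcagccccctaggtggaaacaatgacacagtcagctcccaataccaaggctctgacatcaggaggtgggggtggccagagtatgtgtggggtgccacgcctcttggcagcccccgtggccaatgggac
The windows of Cnn2 and Cnn3 held 33 CpG dinucleotides each, Tagln2 held 18, Tagln3 held 15 and Cnn1 held 6, beside a median of 7 over all windows. These counts and matches describe the letters in the windows, and binding was not measured here.

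Across the 6 libraries Tagln, Cnn1 and Cnn2 had higher correlations with each other than with Tagln2. Pearson's r of log2(FPKM + 0.1) over the 6 libraries was 0.96 for Tagln with Cnn1 and 0.95 for Tagln with Cnn2. It was 0.86 for Cnn1 with Cnn2, 0.60 for Tagln with Cnn3, and 0.47 for Tagln with Tagln2. Each r is a description over 6 points that share the group difference. WT 0 was the highest library for Tagln, Cnn1 and Cnn2, and KO 2 was the lowest. Among 3425 other genes with a mean of at least 20 FPKM and no library at 0, the 5 most like Tagln were Lmna, Msrb3, Col24a1, Lgr6 and Itga8 (r from 0.983 to 0.996). The 5 most like Cnn1 were Synpo2, Ppap2a, Eapp, Csrp1 and Lgals1 (r from 0.988 to 0.997). Itga8, Synpo2 and Csrp1 are on the contractile list. Lmna ran from 85.1 FPKM in KO 2 to 181 FPKM in WT 0, and Synpo2 ran from 11.6 FPKM in KO 2 to 92.1 FPKM in WT 0.

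Markers of other tissues moved between libraries too, and their part in the member values was not tested. The summed FPKM of 16 Schwann cell markers was 141, 113 and 132 in WT 0, WT 1 and WT 2. It was 132, 209 and 324 in KO 0, KO 1 and KO 2. Among the KO libraries KO 2 had the highest Schwann sum and the lowest Tagln and Cnn1, and KO 0 had the reverse. Among the WT libraries, however, WT 0 had the highest Schwann sum and also the highest Tagln and Cnn1. That highest WT sum rests on Pmp22, the most abundant marker of the list. Pmp22 was measured at 115, 83.4 and 82.6 FPKM in WT 0, WT 1 and WT 2. In KO 0, KO 1 and KO 2 it was measured at 69.9, 71.8 and 89.7 FPKM. Its log2 fold change was -0.27, while 12 of the 14 tested markers had a positive one. Sums without Pmp22 were not computed. Of the 14 Schwann markers tested, 7 were higher in KO without overlap and 0 lower. Of 13 tested neuronal markers, 3 were higher without overlap and 0 lower. Over all tested genes 8.21% were higher and 7.84% lower in KO without overlap. The 11 of 14 erythroid markers present in the table summed to 4357, 8758 and 4753 FPKM in WT 0, WT 1 and WT 2. In KO 0, KO 1 and KO 2 they summed to 15488, 27536 and 4985 FPKM. KO 2 had the lowest erythroid sum and the lowest Tagln2 of the KO libraries. WT 0, in contrast, had the lowest erythroid sum and the highest Tagln2 of the WT libraries. Heart muscle markers did not separate the groups, and without the highest library of each group for them (WT 1 and KO 2) the log2 fold change was -1.79 for Cnn1, -0.79 for Tagln, -0.47 for Cnn3 and 3.91 for Tagln3. The unadjusted limma p was then under 0.05 for Cnn1 and Tagln3 only, and the adjusted p was 0.663 and 0.696.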

How the data were processed

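Total RNA of 6 DA samples was sequenced. The authors trimmed reads (minimum length 45 bases), used TopHat2 for alignment to mm10 and Cufflinks for the FPKM values they deposited, 1 per gene and library. Versions, annotation and scaling between libraries are not given in the sources used here. Groups came from the sample titles, and 0 columns were left unmatched. Depth is unknown, so no counting interval was computed. The study describes littermate controls, but gives another number of samples per group for this experiment than the 3 libraries analysed here, and which embryo or embryos made each library is not given. P-values therefore measure the spread between libraries.

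From the deposited FPKM, log2(FPKM + 0.1) of 12955 genes with a mean of at least 1 FPKM was compared with limma 3.58.1 in R 4.3.3 (mean-variance trend, two-sided, Benjamini-Hochberg adjustment, threshold 0.05). This stands in for Cuffdiff, which needs aligned reads. The script was tested on simulated data. Ratios and shares used FPKM and carry no test. Two-sided exact permutation tests used single genes. Positions and coding sequences came from GENCODE vM21 on GRCm38, and promoters from RefSeq (Python 3.11.15).

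Members, gene lists and comparisons were chosen with earlier results of these data known. Named genes were the members, at most 6 of a list by mean FPKM, the 5 genes most correlated with Tagln or Cnn1, and those said to be chosen after their values were seen. Alternatives were other added constants, filters, scalings and variance models, a replicate block and leaving out libraries.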

Additional observations from a re-analysis of the deposited data

How the results depend on the processing

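The 6 log2 fold changes of the members kept their sign in all 95 fits under the alternatives, and none reached an adjusted p under 0.05, the lowest being 0.270 for Cnn1 with the replicate block. Cnn1 ran from -2.37 (without KO 0) to -1.50 (without KO 2), Tagln from -1.50 to -0.67 (the same libraries), and the ratio of Tagln to Tagln2 from a log2 difference of -1.56 to -1.03. The number of genes past the adjusted threshold, 1 as reported, was 1 to 2 when a library was left out. It was 2 without the mean-variance trend, without moderation, and without the libraries highest in heart muscle markers, an alternative chosen after seeing the data. The cause was not tested.

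The same replicate numbers occur in both groups. Deviations from the group means correlated at 0.12, -0.08 and -0.01 for numbers 0, 1 and 2, and WT 1 and WT 2 correlated best with a KO library of another number, so the numbers were not taken as pairs. With the replicate block 1 gene passed adjustment, as without it, and the limma adjusted p was 0.270 for Cnn1, 0.340 for Tagln, 0.561 for Cnn2 and 0.602 for Cnn3. The unadjusted p was then under 0.05 for Cnn2 and over 0.05 for Cnn3, the reverse of the fit without the block. The general actin list median was -0.06 after quantile normalization, against -0.18. Depth is unknown, and 3 libraries a group limit the precision.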

Other observations

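Other marker lists were followed beside the members, as values with no explanation. Endothelial markers summed to 452 to 641 FPKM in WT and 531 to 813 FPKM in KO, and 2 of 14 tested were higher in KO without overlap. Of 12 fibroblast markers 1 was lower and 1 higher without overlap, with a median log2 fold change of -0.18. Over all tested genes 7.84% were lower and 8.21% higher in KO without overlap. Leukocyte markers, which include cells known to make Tagln2, summed to 40.8, 135 and 253 FPKM in WT 0, WT 1 and WT 2 and to 54.5, 289 and 231 FPKM in KO 0, KO 1 and KO 2, and 0 of 11 separated the groups. Epithelial markers summed to 68.4 to 235 FPKM in WT and 94.0 to 189 FPKM in KO. Skeletal muscle markers summed to 17.4 to 41.0 FPKM in WT and 17.7 to 34.4 FPKM in KO, and adipocyte markers to 58.0 to 127 FPKM and 16.7 to 62.1 FPKM.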
